A study of Mus musculus with 12 samples.

Results

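Mt1, Mt2, Mtf1, Slc30a1 and Slc39a14, a set of metallothionein and zinc transport genes, were examined as 5 of the 13552 genes in a table of whole-heart RNA-sequencing values. They were taken by name, and the set was chosen on measured values, because Mt2 was among the genes with the largest rise in knock-in hearts after pressure overload. Differences that involve those hearts are therefore given for the 5 genes as a description, with no test.

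The study asked what phosphorylation of the survival protein Bcl-xL does in a heart under acute pressure overload. Wild-type (WT) mice and mice homozygous for the Bcl-xL S14A knock-in (KI), in which alanine takes the place of the phosphorylated serine, underwent transverse aortic constriction (TAC, a band that narrows the aorta and raises the load on the left ventricle) or a sham operation. The labels give the strain of all mice as C57BL/6, and the study's methods give the C57BL/6J substrain for the wild types and for the backcross of the knock-in. All were young adult males, and hearts were taken 9 h later, from 3 mice for each of the 4 pairings of genotype and surgery. The knock-in is carried in every cell of the body and not in cardiomyocytes alone, the selection cassette having been removed with CMV-Cre, and the wild-type mice were bought from a vendor. Genotype and colony therefore cannot be told apart. Mice are named here by the numbers on their labels.

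Metallothioneins are small, cysteine-rich proteins that bind zinc and copper, and their genes are among the most inducible of the genome. Zinc entering the cytosol binds the factor MTF-1, which then occupies metal response elements and switches on the metallothioneins and the zinc exporter ZnT1. Glucocorticoids and cytokines of the interleukin-6 family are other known inducers, and in the heart metallothioneins are known as buffers of free zinc and of oxidants. Zinc transporters fall into a pair of families, the ZnT proteins (Slc30a genes), which move zinc out of the cytosol, and the ZIP proteins (Slc39a genes), which move it in.

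Values are RPKM, read counts scaled to exon length in kilobases and to library depth. Depth, recovered from the smallest steps in the values, was 23648314 to 32464710 reads on genes per heart. Differences between groups were fitted with limma on log2(RPKM + 1) over 11240 genes that reached 1 RPKM in 3 hearts or more, all 5 genes among them. A gene was called at a Benjamini-Hochberg adjusted p under 0.05. The scale understates changes of low genes. The median difference of all genes was 0.04 in WT TAC against WT sham, -0.10 in KI TAC against KI sham and -0.12 in KI TAC against WT TAC, and quantile normalization brought the last to about 0. The 6 cardiomyocyte markers summed to 14638 to 19594 RPKM in WT sham, 12676 to 22733 in WT TAC, 15887 to 18925 in KI sham and 15383 to 21352 in KI TAC hearts, with Actc1 the largest term. Single markers differed between groups. Myh6 fell in WT hearts from 4115 ± 749 RPKM after sham surgery to 1883 ± 563 RPKM after TAC (limma adjusted p = 0.0129). No other cardiomyocyte marker passed that test, and only Actc1 had a higher mean after TAC (log2 difference 0.42, limma adjusted p = 0.359). Tnni3 (log2 difference 0.95, limma adjusted p = 0.0384) and Myl2 (0.86, limma adjusted p = 0.0447) were higher in KI than in WT hearts after TAC. The others were not called there, with Myh6 at 0.76 (limma adjusted p = 0.0735), Tnnt2 at 0.65 (0.172), Actc1 at -0.24 (0.604) and Ryr2 at -0.20 (0.677). The serine-to-alanine change cannot be checked from values per gene. In whole hearts, a change in the number of cells of a type and a change of RNA per cell cannot be told apart.

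Mt1 (ENSMUSG00000031765, chromosome 8, 94179082 to 94180327, GRCm38, plus strand) and Mt2 (ENSMUSG00000031762, chromosome 8, 94172664 to 94173568, plus strand) are neighbours, with starts 6418 bases apart. The stretches before their starts, and the one before Slc30a1, are shown because they hold the letters of the metal response element (MRE, TGCGCNC or TGCACNC, searched on both strands), the site that MTF-1 is known to bind. RefSeq promoter windows were at hand for 4 of the 5 genes (GRCm38.p6), and the 250 bases before the RefSeq start are printed 5′ to 3′ on the gene's own strand, with MRE matches in capitals.
Mt1, chr8:94178839-94179088, plus strand: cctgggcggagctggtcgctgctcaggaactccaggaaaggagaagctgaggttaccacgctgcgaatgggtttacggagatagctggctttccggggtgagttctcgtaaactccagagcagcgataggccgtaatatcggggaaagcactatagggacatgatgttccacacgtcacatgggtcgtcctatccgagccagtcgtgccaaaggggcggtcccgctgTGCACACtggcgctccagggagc
Mt2, chr8:94172368-94172617, plus strand: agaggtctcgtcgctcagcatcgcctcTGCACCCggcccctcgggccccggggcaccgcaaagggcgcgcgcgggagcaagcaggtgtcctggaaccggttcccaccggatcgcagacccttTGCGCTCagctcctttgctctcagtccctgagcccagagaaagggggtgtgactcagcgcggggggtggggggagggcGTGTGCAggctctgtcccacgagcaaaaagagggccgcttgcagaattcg
Slc30a1, chr1:191906531-191906780, plus strand: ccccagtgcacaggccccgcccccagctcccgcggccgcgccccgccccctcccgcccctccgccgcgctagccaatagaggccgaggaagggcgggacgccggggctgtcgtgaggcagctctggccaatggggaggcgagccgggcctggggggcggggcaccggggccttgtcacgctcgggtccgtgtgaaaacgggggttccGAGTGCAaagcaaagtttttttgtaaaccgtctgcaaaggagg

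In the whole window of 300 bases, from 250 before to 50 after the start, Mt2 held 4 MRE matches and Mt1 held 3. Slc30a1 held 2 and Mtf1 held 0. Several of these lie past the RefSeq start, as in the Mt1 stretch gggagctcTGCACTCcgcccgaa (chr8:94179083-94179105) and the Mt2 stretch ttcgggtcGTGCGCAggcccagg (chr8:94172614-94172636), where the capitals again mark the match. Of 32851 mouse promoter windows of this length, 7.11% held at least 2 MRE matches, 1.97% at least 3 and 0.517% at least 4. The antioxidant response element (TGACNNNGC, both strands) matched 1 time each in Mt2 and Slc30a1, and 12.4% of all windows held it. The letters TTCNNNGAA of a STAT site, held by 8.30% of all windows, were in none of the 4. Sites outside these windows were not searched, and the RefSeq starts of the 4 genes differ from the starts of the gene models used for the values. The counts hold for these windows only. A match is a description of letters, not of a bound site. No protein bound to these stretches was measured.

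Mt2, one of the pair of metallothioneins found in nearly all tissues, was the gene of the set that varied most. Its level was 5.29, 4.60 and 6.33 RPKM in WT sham mice 1, 2 and 3, and 2.64, 9.75 and 5.40 RPKM in KI sham mice 1, 2 and 3. In WT TAC hearts it was 16.9 RPKM in mouse 7, 69.3 in mouse 9 and 9.38 in mouse 10. Each WT TAC heart was above each WT sham heart, but mouse 9 stood far above the other mice. In KI TAC mice 5, 6 and 7 the level was 246, 254 and 146 RPKM, above that of every heart of the other 3 groups. Group means were 5.41 ± 0.871 in WT sham, 31.9 ± 32.7 in WT TAC, 5.93 ± 3.58 in KI sham and 215 ± 60.0 RPKM in KI TAC (SD, n = 3 each).

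Mt1, its close relative, was the more abundant of the pair in sham hearts. WT sham mice 1, 2 and 3 had 22.9, 29.5 and 32.3 RPKM, and KI sham mice 1, 2 and 3 had 13.9, 39.0 and 32.0 RPKM. WT TAC mice 7 and 10, at 29.3 and 28.0 RPKM, lay within the sham range, whereas mouse 9 had 87.7 RPKM. All of the KI TAC hearts were higher, at 179, 206 and 166 RPKM in mice 5, 6 and 7. Means were 28.2 ± 4.83 in WT sham, 48.3 ± 34.1 in WT TAC, 28.3 ± 13.0 in KI sham and 184 ± 20.4 RPKM in KI TAC (SD, n = 3 each). For both metallothioneins the order was KI TAC, WT TAC, KI sham and WT sham, and among neighbours in that order only KI TAC and WT TAC did not overlap.

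**Figure D1:**
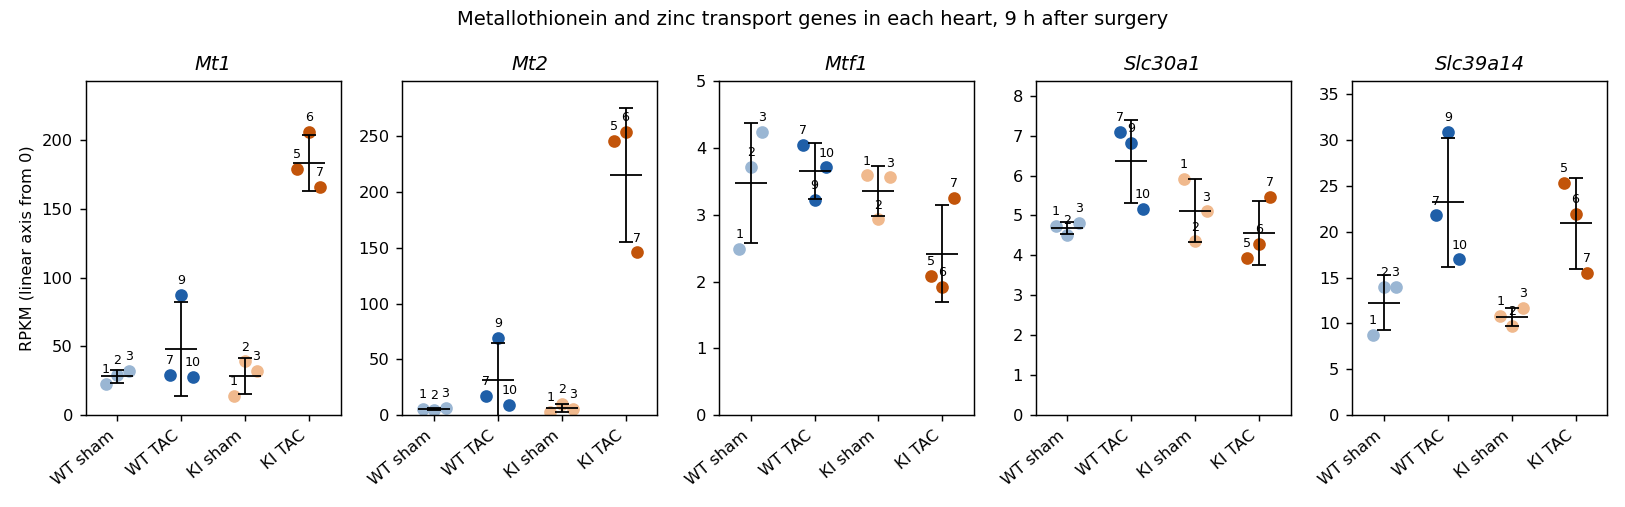
Level of each of the 5 genes in RPKM (y axis, linear from 0, its own scale in each panel) in the 12 hearts, grouped by genotype and surgery, with each point 1 heart labelled by its mouse number, the bar the mean and the whiskers ± 1 SD (n = 3). Mt1 and Mt2 stand apart in the KI TAC hearts, WT TAC mouse 9 is the highest WT heart for Mt1, Mt2 and Slc39a14, and the Mtf1 and Slc30a1 groups lie close together.

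Mtf1 (ENSMUSG00000028890, chromosome 4, 124802104 to 124849800, plus strand), which encodes the zinc-sensing factor itself, was low and nearly level. It ranged from 2.49 to 4.24 RPKM in WT sham, 3.22 to 4.05 in WT TAC and 2.93 to 3.59 in KI sham hearts. KI TAC mice 5 and 6 had 2.09 and 1.92 RPKM, the lowest of all 12 hearts, while mouse 7 had 3.25 RPKM. KI TAC therefore overlapped each other group. Means were 3.48 ± 0.900, 3.66 ± 0.420, 3.36 ± 0.372 and 2.42 ± 0.721 RPKM, in the order WT sham and TAC, then KI sham and TAC (SD, n = 3 each).

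Slc30a1 (ENSMUSG00000037434, chromosome 1, 191906767 to 191913247, plus strand) encodes ZnT1, the zinc exporter of the plasma membrane and a textbook MTF-1 target. Its level was 4.74, 4.52 and 4.81 RPKM in WT sham mice 1, 2 and 3, and 7.09, 6.81 and 5.17 RPKM in WT TAC mice 7, 9 and 10. KI sham mice 1, 2 and 3 had 5.92, 4.35 and 5.10 RPKM, and KI TAC mice 5, 6 and 7 had 3.93, 4.29 and 5.46 RPKM. The WT TAC hearts lay just above the WT sham hearts, and the KI TAC hearts overlapped all of the other groups. Means were 4.69 ± 0.156, 6.36 ± 1.04, 5.13 ± 0.784 and 4.56 ± 0.798 RPKM, listed as for Mtf1 (SD, n = 3 each). No 2 neighbours in the order of the means were free of overlap.

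Slc39a14 (ENSMUSG00000022094, chromosome 14, 70303469 to 70351425, minus strand) encodes ZIP14, a cell surface importer of zinc, iron and manganese known to be raised in inflammation. It was 8.79 RPKM in WT sham mouse 1, 14 RPKM in each of WT sham mice 2 and 3, and 10.8, 9.74 and 11.7 RPKM in KI sham mice 1, 2 and 3. After TAC it was 21.8, 30.9 and 17.0 RPKM in WT mice 7, 9 and 10, and 25.3, 22.0 and 15.5 RPKM in KI mice 5, 6 and 7. All 6 TAC hearts lay above all 6 sham hearts, and the TAC groups of the 2 genotypes overlapped. Means were 12.3 ± 3.01, 23.2 ± 7.05, 10.8 ± 0.991 and 20.9 ± 4.96 RPKM, in the same order (SD, n = 3 each). From the highest mean the order was WT TAC, KI TAC, WT sham and KI sham, and of the neighbours only KI TAC and WT sham did not overlap.

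The first comparison asked what TAC does in WT hearts, and it uses no KI TAC heart except in the shared estimate of spread. Mt2 and Slc39a14 rose, so that 2 of the 5 genes were called higher and 0 lower, against 6.96% of all genes tested called higher and 4.60% called lower. Mt2 rose by 1.89 on the log2 scale (SE 0.54, limma adjusted p = 0.0383), with means 5.89-fold apart. Slc39a14 rose by 0.86 (SE 0.25, limma adjusted p = 0.0376), with means 1.89-fold apart. Mt1 differed by 0.56 (SE 0.41, limma adjusted p = 0.391), Slc30a1 by 0.36 (SE 0.17, limma adjusted p = 0.175) and Mtf1 by 0.07 (SE 0.19, limma adjusted p = 0.835), and these were not called. The Mt2 and Slc39a14 calls were narrow. Both were lost when WT sham mouse 1, 2 or 3, WT TAC mouse 7 or WT TAC mouse 9 was left out. Without WT TAC mouse 9 the Mt2 difference was 1.10 (limma adjusted p = 0.104), that of Slc39a14 0.64 (limma adjusted p = 0.137) and that of Mt1 0.03. Both were also lost with quantile normalization, with median-ratio scaling and in a fit of the WT hearts alone, and that of Mt2 also with limma-voom on recovered reads (adjusted p = 0.0559).

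The second comparison asked whether the knock-in alone changed these genes, in sham hearts. None of the 5 was called, against 0.0178% of all genes, which is 2 of 11240. By limma 37 genes had an unadjusted p under 0.05 in this comparison, and none of the 5 was among them. With limma-voom on recovered reads 0 of the 5 were called as well. The KI sham minus WT sham difference was -0.10 for Mt1 (SE 0.41), -0.02 for Mt2 (SE 0.54), -0.02 for Mtf1 (SE 0.19), 0.10 for Slc30a1 (SE 0.17) and -0.15 for Slc39a14 (SE 0.25). KI sham mouse 1 was the lowest and KI sham mouse 2 the highest of all 6 sham hearts for both Mt1 and Mt2, so that the KI sham hearts spanned the WT sham range on both sides.

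In the third comparison, TAC in KI hearts, Mt2 was 5.06 higher on the log2 scale after TAC than after sham surgery, with means 36.3-fold apart, and Mt1 was 2.77 higher, with means 6.48-fold apart. Slc39a14 was 0.88 higher, close to its WT difference of 0.86. Mtf1 and Slc30a1 were 0.37 and 0.14 lower, with overlapping hearts. KI TAC against WT TAC gave 3.16 for Mt2, 2.11 for Mt1, -0.13 for Slc39a14, -0.40 for Slc30a1 and -0.46 for Mtf1. The TAC difference was larger in KI than in WT hearts by 3.17 for Mt2 (2.58 to 3.96 on leaving out a heart), by 2.21 for Mt1 (1.78 to 2.73) and by 0.02 for Slc39a14 (-0.17 to 0.24), and for Slc30a1 and Mtf1 the same quantity was -0.50 and -0.44. These comparisons share the KI TAC hearts, on which the set was chosen, and nothing is read from them. Of all genes tested, 8.57% were called higher and 14.7% lower in KI TAC against KI sham hearts, and 2.92% higher and 8.13% lower in KI TAC against WT TAC hearts.

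Counted in reads, Mt2 rested on 38 to 173 reads per sham heart, 144 to 1207 per WT TAC heart and 2712 to 4732 per KI TAC heart. Together the metallothioneins took 31.7, 39.5 and 44.0 RPM (reads scaled to depth as in RPKM, but not to length) in WT sham mice 1, 2 and 3 and 46.5, 150 and 40.4 in WT TAC mice 7, 9 and 10. In KI sham mice 1, 2 and 3 the sum was 18.8, 54.4 and 43.1, and in KI TAC mice 5, 6 and 7 it was 367, 406 and 293 RPM. By this sum WT TAC mice 7 and 10 lay within the range of the sham hearts, and mouse 9 lay between the sham and the KI TAC hearts.

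The share of Mt2 within the pair was taken from the same reads. Mt2 gave 0.109, 0.0736 and 0.0925 reads per Mt1 read in WT sham mice 1, 2 and 3, and 0.0900, 0.118 and 0.0795 in KI sham mice 1, 2 and 3. The ratio was 0.272, 0.373 and 0.158 in WT TAC mice 7, 9 and 10, and 0.650, 0.582 and 0.415 in KI TAC mice 5, 6 and 7. WT TAC hearts were above all sham hearts, also mice 7 and 10, whose Mt1 level lay within the sham range, and KI TAC hearts were above all WT TAC hearts. In WT hearts the log2 ratio differed by 1.48 between TAC and sham (exact two-sided permutation test, p = 0.1, the smallest that 3 hearts against 3 can give). Between the sham groups it differed by 0.06 (exact two-sided permutation test, p = 0.8).

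**Figure D2:**
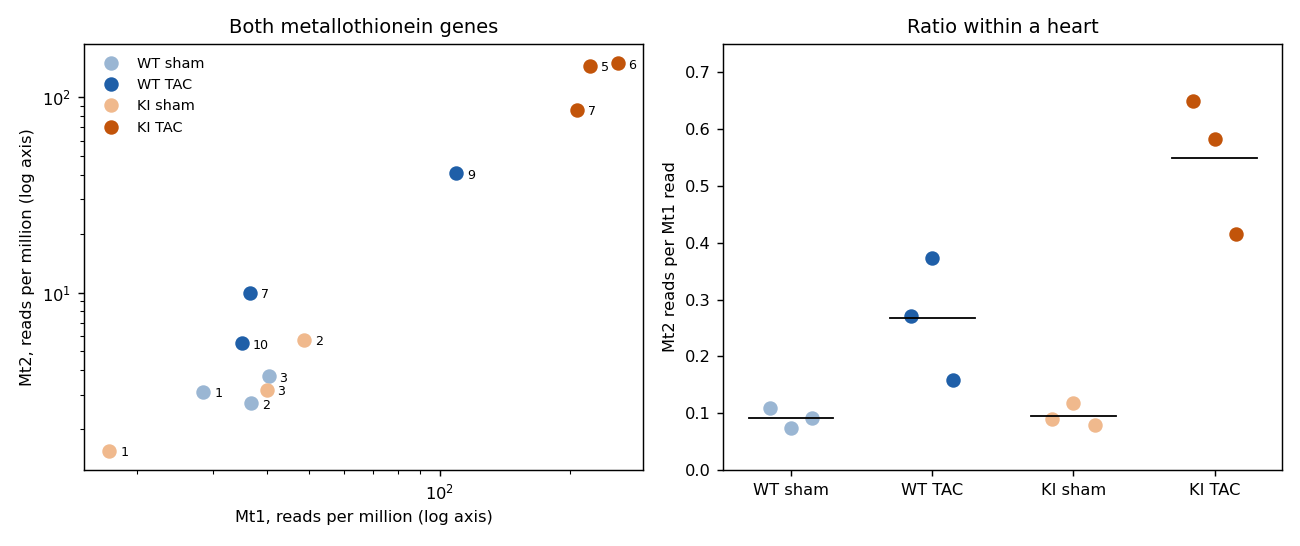
Left, Mt2 against Mt1 in RPM (both axes logarithmic) for the 12 hearts, labelled by mouse number and coloured by group; right, Mt2 reads per Mt1 read (y axis, linear from 0), each point 1 heart and the line the group mean. WT TAC mouse 9 lies between the sham and the KI TAC hearts on the left, and the ratio is 0.0736 to 0.118 in sham hearts, 0.158 to 0.373 in WT TAC and 0.415 to 0.650 in KI TAC hearts.

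The annotation bears on these levels. The Mt1 gene model spans 1246 exon bases because it includes a transcript of 1 exon, whereas its principal transcript has 549 bases, so that RPKM per gene understates Mt1 relative to Mt2, whose model has 588 and whose principal transcript has 511. On principal lengths, Mt1 was 52.0 to 73.4 and Mt2 5.30 to 7.29 RPKM in WT sham hearts, and in KI TAC hearts Mt1 was 377 to 468 and Mt2 168 to 292 RPKM. Mt1 was thus the more abundant of the pair in every heart on this scale, including KI TAC mice 5 and 6, where the values per gene placed Mt2 above it. An antisense gene, Gm45774 (chromosome 8, 94170748 to 94173412, minus strand), covers 432 of the 588 Mt2 exon bases. The library kit marked the strand, but the strand setting of the counting is not given in the sources used here. Reads of Mt2 and Gm45774 may therefore have been mixed, or dropped where the genes overlap, which leaves 156 Mt2 exon bases outside Gm45774. If reads were dropped, Mt2 is understated in its levels and in its ratio to Mt1. The order of the pair on principal lengths is then not certain. Gm45774 had 2 to 27 reads in sham, 12 to 53 in WT TAC and 169 to 314 in KI TAC hearts, fewer than Mt2 in each. The next gene on the other side, Nup93, a nuclear pore subunit whose start lies 35482 bases from that of Mt1, had means of 3.33 ± 0.627, 4.39 ± 1.36, 3.13 ± 0.425 and 3.62 ± 1.02 RPKM, again in that order (SD, n = 3 each), and it was called in none of the 4 comparisons by limma.

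The other genes of zinc handling were read from a list of 29, the 5 genes set aside. Of the 24 others, 14 had values and 13 were tested. Slc39a8, which encodes the importer ZIP8, stayed under 1 RPKM in every heart (0.0517 to 0.438 RPKM). Mt3, Mt4, Slc30a2, Slc30a3, Slc30a8, Slc30a10, Slc39a2, Slc39a4, Slc39a5 and Slc39a12 were not analysed here.

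In WT hearts after TAC, 5 of the 13 rose and 0 fell, against 6.96% and 4.60% of all genes, and their median difference was 0.37. Slc39a6, the plasma membrane importer ZIP6, rose by 1.08 (SE 0.15, limma adjusted p = 0.000705), from 1.34 ± 0.347 to 3.91 ± 0.371 RPKM (SD, n = 3). Slc39a10, its partner ZIP10, rose by 0.76 (SE 0.19, limma adjusted p = 0.0199). Slc39a1, the importer ZIP1 and the most abundant of the 13 in WT TAC hearts, rose by 0.95 (SE 0.20, limma adjusted p = 0.00906), from 32.1 ± 4.35 to 62.7 ± 6.24 RPKM. Slc30a4, the vesicular transporter ZnT4, rose by 0.87 (limma adjusted p = 0.0169), and Slc39a13, the transporter ZIP13 of the early secretory pathway, rose by 0.75 (limma adjusted p = 0.0257). The count was 3 without WT sham mouse 1 or without WT sham mouse 3.

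In KI hearts after TAC, 2 of the 13 rose and 1 fell, a share near that of all genes (8.57% and 14.7%), and the median difference was 0.14. Slc39a6 rose by 1.24 (SE 0.15, limma adjusted p = 0.000154) and Slc39a10 by 0.93 (SE 0.19, limma adjusted p = 0.00356). Slc39a3, the importer ZIP3, fell by 1.08 (SE 0.18, limma adjusted p = 0.00119), from 29.3 ± 2.63 in KI sham to 13.4 ± 2.89 RPKM in KI TAC hearts (SD, n = 3). With median-ratio scaling 5 of the 13 were called.

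Between the TAC groups, 2 of the 13 were lower in KI hearts, against 8.13% of all genes, and the median difference was -0.13. Slc39a13 was 14.6 ± 2.34 RPKM in WT TAC and 7.10 ± 2.34 RPKM in KI TAC hearts (log2 difference -0.97, SE 0.20, limma adjusted p = 0.0115). Slc39a3 was 25.0 ± 3.65 and 13.4 ± 2.89 RPKM (log2 difference -0.86, SE 0.18, limma adjusted p = 0.0146). The 5 fibroblast markers summed to 104 to 156 RPKM in WT sham, 126 to 549 in WT TAC, 123 to 205 in KI sham and 85.3 to 155 in KI TAC hearts. None of them passed the test between the TAC groups, where Col1a1 had -1.67 (limma adjusted p = 0.0646) and Lum -1.22 (limma adjusted p = 0.0567). In KI TAC against KI sham hearts only Lum was called, with a fall of 1.14 (limma adjusted p = 0.0476). The part of fibroblasts in the zinc transporter differences was not tested. The count of the list was 0 in a fit of the TAC hearts alone and when WT TAC mouse 7 or KI TAC mouse 6 was left out. It was 4 when WT TAC mouse 9 or KI TAC mouse 7 was left out. All of the called directions in the list stood under quantile normalization, median-ratio scaling and limma-voom on recovered reads. No gene of the list passed the test of a different TAC response in the genotypes, where Slc39a13 had -0.94 (limma adjusted p = 0.168) and Slc39a3 -0.91 (limma adjusted p = 0.162). Of all genes apart from the 5, 0 of 11235 passed it by limma and 0 of 11226 by limma-voom, and 1666 had an unadjusted p under 0.05 by limma. Without WT TAC mouse 9, 10 or KI TAC mouse 7, 230, 7 and 183 of these genes passed it, with Slc39a13 the only one of this list, on leaving out KI TAC mouse 7. In sham hearts 0 of the 13 were called, by limma or limma-voom, and 0 had an unadjusted p under 0.05.

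**Figure D3:**
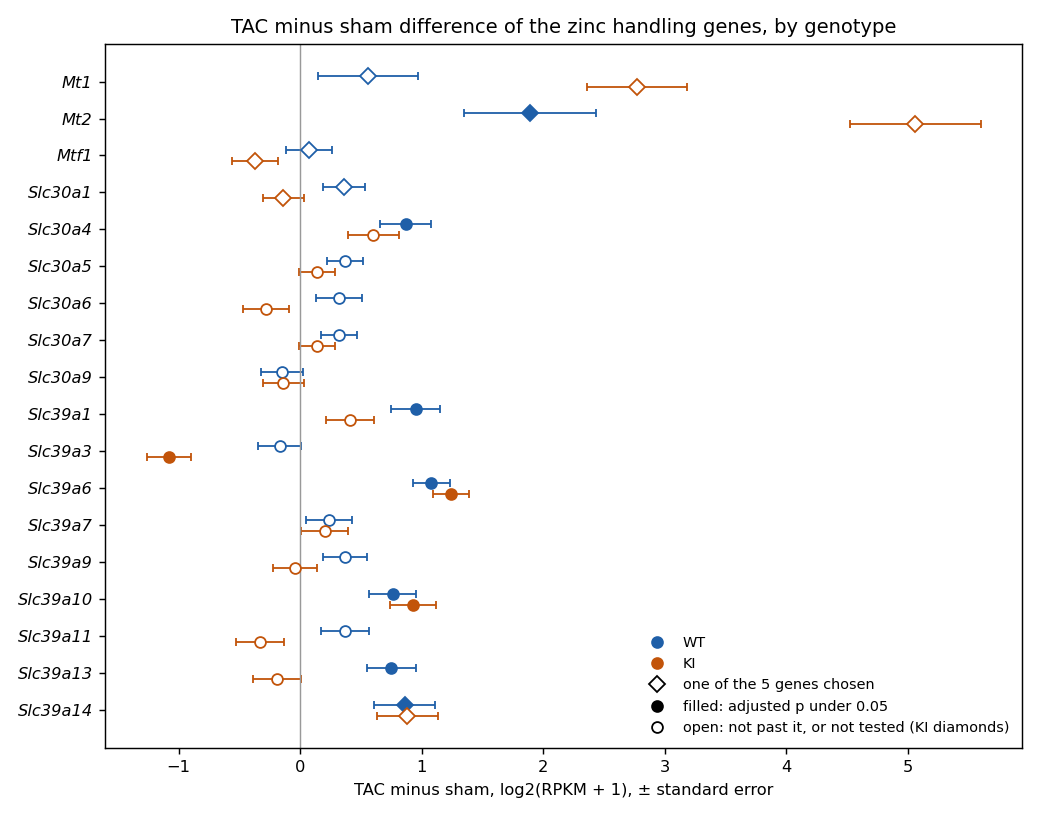
TAC minus sham difference on the log2(RPKM + 1) scale (x axis, ± standard error) of the 5 genes (diamonds) and the 13 other zinc handling genes (circles), with WT in blue, KI in orange, and filled symbols for an adjusted p under 0.05; the KI diamonds were not tested. Mt2 and Mt1 lie far to the right in KI hearts, Slc39a6, Slc39a10 and Slc39a14 have like differences in both genotypes, and Slc39a3 lies to the left in KI hearts.

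Of 6 other known targets of MTF-1, 1 rose after TAC in WT hearts (Slc39a10), 3 rose in KI hearts, and 1 was higher in the KI than in the WT hearts after TAC. The same shares over all genes tested were 6.96%, 8.57% and 2.92%. This list, too, was chosen with results of these data known. Slc39a10 is known as a gene that MTF-1 represses, unlike the metallothioneins, and the count takes no account of this. With WT TAC mouse 9 left out, the count in WT hearts was 0. Pgf, the growth factor PlGF of the VEGF family, was 1.51 ± 0.880 RPKM in WT TAC and 10.2 ± 5.72 RPKM in KI TAC hearts (log2 difference 2.10, SE 0.29, limma adjusted p = 0.00395). Gclc, the catalytic subunit of the enzyme that starts glutathione synthesis, rose by 0.85 in KI hearts (SE 0.19, limma adjusted p = 0.00530). Slc30a1, another MTF-1 target, had its lowest mean in these KI TAC hearts, within the spread of WT sham and KI sham.

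Iron, copper and manganese genes were read beside Slc39a14, which also carries iron and manganese. Of 16 tested, 1 rose in WT hearts and 1 rose and 1 fell in KI hearts, so that the list stood no higher than all genes, of which 6.96% rose in WT hearts and 8.57% rose and 14.7% fell in KI hearts. Tfrc, the transferrin receptor that takes up iron, rose by 1.88 in WT hearts (SE 0.43, limma adjusted p = 0.0132) and by 1.80 in KI hearts (SE 0.43, limma adjusted p = 0.00914). Slc40a1, the iron exporter ferroportin, fell by 0.82 in KI hearts (SE 0.17, limma adjusted p = 0.00354). Between the TAC groups 0 of the 16 were called, by limma or limma-voom, and 5 had an unadjusted p under 0.05. Between the sham groups all 3 counts were 0.

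Genes known to answer the other inducers of metallothioneins moved as follows, in lists that, like the set itself, were chosen with results of these data known. The shares of all genes that rose and fell were 6.96% and 4.60% in WT and 8.57% and 14.7% in KI hearts, and 2.92% were higher in KI than in WT hearts after TAC. Of 12 glucocorticoid-responsive genes, 0 rose and 2 fell in WT hearts, 6 rose and 0 fell in KI hearts, and 9 were higher in KI than in WT hearts after TAC, with median differences of -0.35, 1.05 and 1.51. Fkbp5, a chaperone of the glucocorticoid receptor, was 4.32 ± 4.33 RPKM in WT TAC and 19.5 ± 6.95 RPKM in KI TAC hearts (log2 difference 2.20, SE 0.54, limma adjusted p = 0.0239). Pdk4, a kinase that restrains glucose oxidation, was 2.62 higher (limma adjusted p = 0.0237), and Cdkn1a, the cell cycle inhibitor p21, was 2.0 higher (limma adjusted p = 0.0372). Ddit4, an inhibitor of mTORC1, was 1.94 higher (limma adjusted p = 0.0169), with a fall of 1.40 after TAC in WT hearts (limma adjusted p = 0.0497) and a difference of 0.50 in KI hearts that did not pass the test (limma adjusted p = 0.430). Tsc22d3, which encodes the glucocorticoid-induced leucine zipper, was the other gene of the list that fell in WT hearts, with -1.08 (limma adjusted p = 0.0188). Within WT TAC the list's mean log2 level was 5.33 in mouse 9 and 3.97 and 3.79 in mice 7 and 10, and it was 6.00, 5.88 and 5.63 in KI TAC mice 5, 6 and 7. Mouse 9 was the highest WT TAC heart for this list, as for Mt1 and Mt2, and also for the lists of MTF-1 targets (3.53 against 3.36 and 3.37), interleukin-6 targets (4.40 against 4.19 and 3.97) and Nrf2 targets (4.13 against 3.98 and 3.97). It was the lowest for the zinc handling list (2.65 against 2.79 and 2.87) and below mouse 10 for the iron, copper and manganese list (3.41 against 3.63). WT sham hearts, at 4.01 to 4.92, were above WT TAC mice 7 and 10 for this list and below them for Mt2. The part of any of these lists in the metallothionein levels was not tested.

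Of 16 genes of the interleukin-6 family and Stat3, 8 rose in WT hearts and 8 rose and 2 fell in KI hearts, with medians of 0.65 and 0.86. Socs3, the feedback inhibitor of this pathway, rose by 2.90 in WT hearts (SE 0.34, limma adjusted p = 0.000241) and by 3.70 in KI hearts (SE 0.34, limma adjusted p = 1.87e-05). Serpina3n, an acute-phase protease inhibitor, rose by 3.56 and 4.30 (limma adjusted p = 5.70e-05 and 1.07e-05), and Lcn2, an iron-scavenging acute-phase protein, rose by 3.12 and 4.09 (limma adjusted p = 0.00224 and 0.000181). Between the TAC groups 0 of the 16 were higher in KI hearts, and 1, the Janus kinase gene Tyk2, was lower. Of 9 genes of Nrf2 and the oxidative stress response, 3 rose in WT hearts, 4 rose in KI hearts and 2 were higher in KI than in WT hearts after TAC. Hmox1, the heme-degrading enzyme, rose by 1.54 in WT (SE 0.20, limma adjusted p = 0.000429) and by 2.56 in KI hearts (SE 0.20, limma adjusted p = 1.07e-05), and Srxn1, sulfiredoxin, was 1.23 higher in KI than in WT hearts after TAC (SE 0.29, limma adjusted p = 0.0206). In sham hearts no gene of these lists or of the MTF-1 targets was called, by limma or limma-voom, and only Pdk4, 1.54 higher in KI sham, passed an unadjusted p of 0.05.

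**Figure D4:**
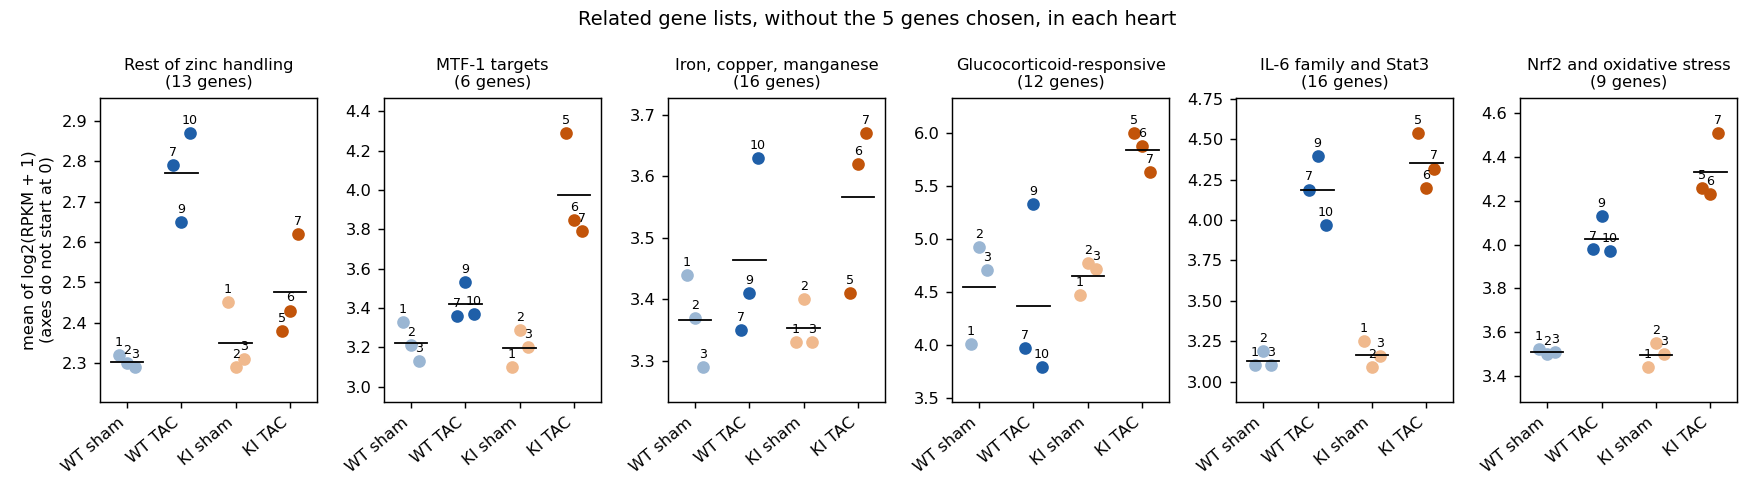
Mean of log2(RPKM + 1) over the tested genes of each list (y axis, not starting at 0, its own scale in each panel) in the 12 hearts, each point 1 heart labelled by mouse number and the line the group mean, with the 5 genes left out. The glucocorticoid list is at 5.33 in WT TAC mouse 9 against 3.97 and 3.79 in mice 7 and 10, and at 5.63 to 6.00 in KI TAC hearts, whereas the interleukin-6 list overlaps between the TAC groups.

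Markers of immune cells were set beside these values. Of 5 neutrophil markers, 3 had values, and their summed level was 0.508 to 1.27 RPKM in WT sham, 3.69 to 9.87 in WT TAC, 0.395 to 0.505 in KI sham and 4.18 to 20.3 in KI TAC hearts. S100a9 was 2.92 ± 1.43 RPKM in WT TAC and 7.16 ± 4.91 RPKM in KI TAC hearts (log2 difference 0.92, limma adjusted p = 0.109). S100a8 differed by 0.68 (limma adjusted p = 0.222), and Csf3r went the other way, with -0.35 (limma adjusted p = 0.252). Mouse 9, the WT TAC heart with the highest Mt2, was also the highest WT TAC heart for S100a8, at 3.41 RPKM, and S100a9, at 4.40 RPKM. The 5 macrophage markers summed to 68.3 to 113, 135 to 195, 74.3 to 97.9 and 78.8 to 110 RPKM in the same order of groups as the neutrophil markers, with Lyz2 the largest term. In KI against WT hearts after TAC, Adgre1 (log2 difference -1.15, limma adjusted p = 0.0135) and Csf1r (-0.91, limma adjusted p = 0.00913) were lower. The other 3 macrophage markers did not pass the test, with Lyz2 at -0.84 (limma adjusted p = 0.050), Cd68 at -0.55 (limma adjusted p = 0.143) and Cd163 at 0.75 (limma adjusted p = 0.110). No marker of these lists was at 0 in all hearts of a group. The part of infiltrating cells in the levels of Mt1, Mt2 and Slc39a14 was not tested.

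Genes with the pattern most like that of each of the 5 were sought by Pearson's r over the 12 hearts, as a description, with the 5 themselves and predicted genes left out of the search. For Mt2 they were Plscr1 (r = 0.978), Tent5a (0.977), Abra (0.976), Gadd45g (0.974) and Agt (0.972). For Mt1 they were Agt (r = 0.988), Klhl2 (0.975), Icosl (0.974), Smim41 (0.958) and Snhg12 (0.958). Agt, which encodes angiotensinogen, stood in both lists. The 12 points fall into groups, since the KI TAC hearts hold the highest Mt1 and Mt2 values, and r is large for any gene that is high in those hearts. For Slc39a14 they were Tshz2 (r = 0.972) and Hp (0.950), the latter encoding haptoglobin, a hemoglobin-binding acute-phase protein, followed by Pakap (0.947), Pdpk1 (0.942) and Fgl2 (0.934). For Slc30a1 the first was Dtx4 (r = 0.950), and for Mtf1 it was Rab14 (r = 0.934). Between the 5 genes themselves, r was 0.973 for Mt1 with Mt2, 0.728 for Mt2 with Slc39a14, -0.151 for Mt2 with Slc30a1 and -0.650 for Mt2 with Mtf1.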

How the data were processed

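Poly(A)-selected, strand-specific libraries of 12 whole hearts were read as 75-base single reads. Per the labels and the study's methods, the authors trimmed with Trimmomatic 0.39, aligned with HISAT2 2.2.1 (GRCm38) and counted with HTSeq 0.6.1, with edgeR 3.18.1 and limma 3.32.10 used downstream. The deposited values are RPKM per gene, made by the authors. The step from counts to RPKM and the gene filter are not given in the sources used here. Multiplied by exon length they summed to 997559 to 1002031 per heart, and 97.8% to 98.2% of low values came out as whole reads within 0.05 reads.

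From these, log2(RPKM + 1) was fitted over 12 hearts with limma 3.58.1 (R 4.3.3, lmFit and eBayes with trend), after a filter of 1 RPKM in at least 3 hearts and with Benjamini-Hochberg adjustment. The fit was tested on simulated data. Reads used in the text are RPKM times exon length times depth. The 5 genes and all lists were chosen with earlier results of these data known. Named besides the 5 were the called zinc handling genes, genes from among the 4 called ones with the largest difference per comparison in each other list, and the 5 genes of highest Pearson's r. Single cell type markers were chosen after their values were seen. Group and mouse number come from the labels. Alternatives were a pseudocount of 0.1, no filter, quantile normalization, median-ratio scaling, limma-voom on recovered reads, the compared groups alone, each heart left out, and a replicate block. Atrial, lymphocyte and adipocyte markers were not analysed here.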

Additional observations from a re-analysis of the deposited data

How the results depend on the processing

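With 3 hearts a group and Mt2 at 38 to 173 reads in sham hearts, small differences of these genes were not detectable, and p-values rest on the spread between single mice. The count of the 5 genes called in WT TAC against WT sham hearts, 2 by the analysis reported, was 0 with quantile normalization, 0 with median-ratio scaling, 0 in the groups compared only and 1 with limma-voom on recovered reads (Slc39a14, with Mt2 at an adjusted p of 0.0559), and it ranged from 0 to 2 when each heart was left out. Over all alternatives the limma adjusted p was 0.00763 to 0.108 for Mt2 and 0.0170 to 0.144 for Slc39a14, with differences of 1.10 to 2.48 and 0.64 to 1.05, so that the direction stood throughout. The zinc handling count in WT hearts was 3 to 4 on leaving out a heart (5 reported). In KI hearts it was 5 with median-ratio scaling (3 reported), and in KI TAC against WT TAC it was 0 in the groups compared only and 0 to 4 on leaving out a heart (2 reported). The cause of these changes was not tested. Differences near 0 changed sign on leaving out a heart, from -0.10 to 0.20 for Mtf1 in WT hearts, from -0.33 to 0.09 for Slc39a14 in KI TAC against WT TAC (also 0.02 with median-ratio scaling), and between sham groups from -0.39 to 0.33 for Mt1, -0.40 to 0.38 for Mt2 and -0.19 to 0.10 for Mtf1. The described Mt2 difference was 4.66 to 5.44 in KI TAC against KI sham and 2.56 to 3.95 in KI TAC against WT TAC over all alternatives. Sham mice of both genotypes carry numbers 1 to 3. The deviations of same-numbered mice correlated at -0.22, -0.30 and 0.44, and those of differently numbered mice at -0.35 to 0.43. With 3 hearts a group these values show no pairing by number and cannot exclude it. With the number as replicate block, 0 of the 5 genes and 0 of the zinc handling list were called, as without it. Of 414 recomputed values, 372 kept their direction and side of the threshold, or lay within the limits of a like value. Many of the 414 are differences of the 5 genes that involve KI TAC hearts, which were not tested and have no threshold to keep. Of the tested WT differences, that of Mt2 kept its direction and side of the threshold in 3 of 12 alternatives, and that of Slc39a14 in 4 of 12. Counts of the other lists without WT TAC mouse 9 were recomputed after seeing the data.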
